A study of Mus musculus with 6 samples.

Results

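Monocytes and macrophages are the phagocytes of the myeloid lineage, and 10 genes known for them were followed here in sorted mouse bone marrow cells: Csf1r, Cd14, Fcgr3, Mrc1, Ccr2, Cx3cr1, Ly6c2, Lyz2, Cd68 and Ctss. They were taken by symbol from a table of 53465 genes; each symbol stood in 1 row, and all 10 genes were among the 15533 with enough counts to be tested. The cells came from wild-type mice that had been given a total body dose of 5.0 Gy, followed by saline (3 libraries) or carnosine (3 libraries), a dipeptide of beta-alanine and histidine. The sort from the marrow was for the long-term stem cell phenotype (LT-HSC): no lineage markers, Sca-1 and c-Kit present, Flk2 and CD34 absent. All mice were irradiated, so the comparison shows what differed with carnosine after radiation and holds no unirradiated level. Neither the age, sex or number of mice per library nor the dose and timing of carnosine was in the labels. Nor do the labels say that each library is a different mouse, so p-values refer to the spread among libraries alone, and that spread may be technical.

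Monocytes descend from stem cells through granulocyte and monocyte progenitors, and the factors PU.1, IRF8 and KLF4 steer that path. Signals through the receptor for colony stimulating factor 1 (CSF1) sustain the lineage, chemokine receptors bring monocytes out of the marrow and into tissue, and macrophages then engulf and digest particles in lysosomes. Several of these genes are also transcribed at low levels in multipotent progenitors, so their transcripts alone do not mark a mature cell.

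The libraries held 12602067 to 16866534 counts each. Log2 levels of 2 libraries correlated at 0.988 to 0.990 within a group and at 0.959 to 0.962 between groups (Pearson's r across genes, which are not independent replicates). The 10 genes had between 288 and 8977 counts each, summed over the 6 libraries. Levels are given as CPM, counts divided by library size on a common scale, as mean ± SD of 3 libraries.

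With carnosine, Fcgr3, Ly6c2 and Cd68 rose and Csf1r, Lyz2, Mrc1 and Cd14 fell, while Ctss, Cx3cr1 and Ccr2 did not pass the test (adjusted p below 0.05 over all tested genes, from the quasi-likelihood test of edgeR with Benjamini-Hochberg adjustment). The log2 fold changes ran from -1.05 for Mrc1 to 1.18 for Fcgr3, with a median of 0.019. Thus 7 of the 10 genes were called, 3 higher and 4 lower. Among all tested genes 39.4% were called, 19.6% higher and 19.8% lower, and the median log2 fold change was -5.0e-05. On the deposited FPKM values, tested with limma-trend, the split of all calls moved from 3038 higher and 3077 lower to 3387 higher and 2156 lower. The saline and carnosine libraries did not overlap for the 7 called genes, as for 52.3% of all tested genes. In such sorted populations a change in the number of cells that carry a transcript and a change in its amount per cell cannot be told apart. The summed level of the 10 genes was 449 to 480 CPM in the saline libraries and 490 to 522 CPM in the carnosine libraries.

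**Figure D1:**
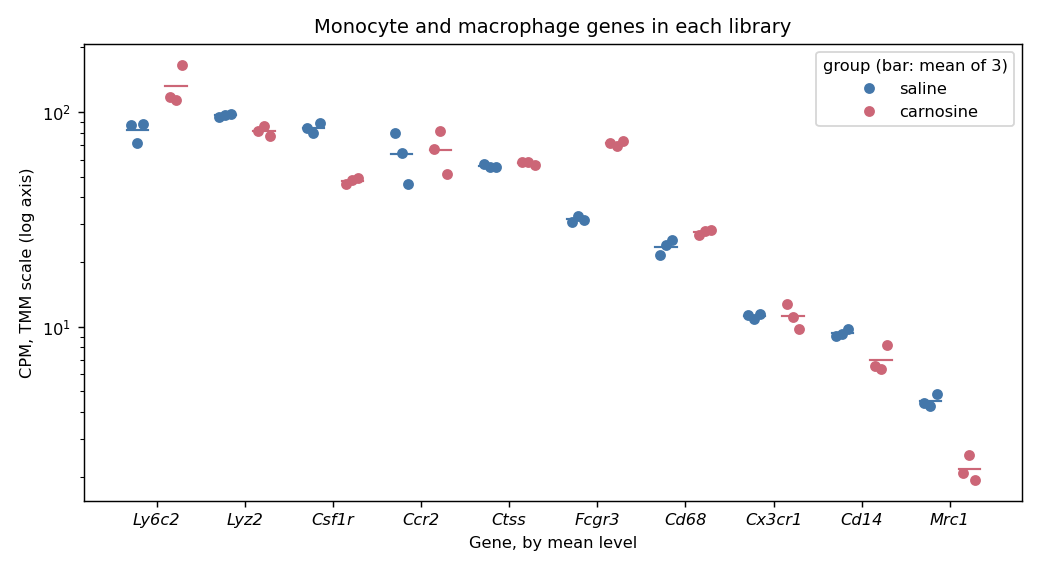
Level of each of the 10 genes in each library, in CPM on a log axis; points are single libraries, short bars are means of 3 libraries per group. Fcgr3 separates the groups most, from about 31.6 to 71.4 CPM, and Ccr2 spreads widely within both groups.

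**Figure D2:**
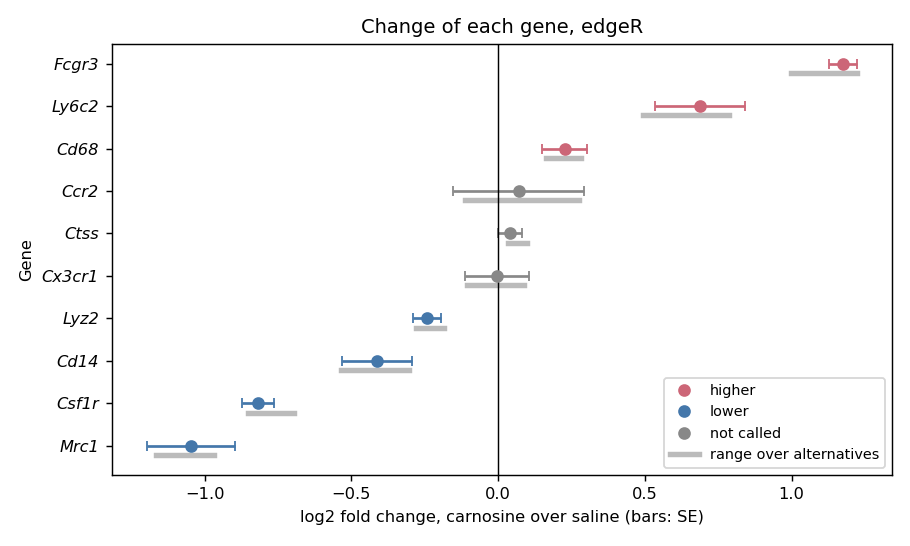
Log2 fold change of carnosine over saline for each gene with its SE from edgeR, coloured by call; grey bars span the values under the alternative settings. The changes run from Mrc1 at -1.05 to Fcgr3 at 1.18, and the grey bars of Cx3cr1 and Ccr2 cross 0.

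Csf1r (ENSMUSG00000024621, chromosome 18, 61105572 to 61132149, GRCm38) encodes the receptor tyrosine kinase for CSF1 and interleukin 34. It was at 84.0, 80.2 and 88.9 CPM in the saline libraries and at 46.1, 48.1 and 49.4 CPM in the carnosine libraries. Every carnosine library lay well under the lowest saline library, and the spread within a group was small. The fall was 1.76-fold (log2 fold change -0.82 ± 0.0541, SE; edgeR adjusted p = 3.8e-05). In the GENCODE M21 annotation, exons of Hmgxb3, on the opposite strand, share positions with exons of Csf1r. That annotation places Csf1r at a different position from the one above, and no source used here gives the strand setting of the counting. Hmgxb3 went the other way, from 59.8 ± 2.92 to 68.2 ± 3.4 CPM, each over 3 libraries with its SD (edgeR log2 fold change 0.19, adjusted p = 0.037).

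Of 15 other genes listed for the CSF1 receptor axis, 14 were tested, 4 fell (Csf1, Sos1, Plcg2 and Syk), 1 rose (the phosphatase gene Ptpn6) and 9 were not called, with a median log2 fold change of -0.0053. The share called, 35.7%, was near the 39.4% of all tested genes. The ligand gene Csf1 was at 19.6, 20.3 and 19.1 CPM with saline and 13.3, 11.1 and 11.7 CPM with carnosine. Csf1 thus fell together with its receptor gene (log2 fold change -0.71 ± 0.0857, SE; edgeR adjusted p = 6.7e-04). The exchange factor gene Sos1 fell by 0.34 and the phospholipase gene Plcg2 by 0.18 on the log2 scale. The second ligand gene, Il34, was near 0 in every library (at most 0.195 CPM) and was not tested.

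Fcgr3 (ENSMUSG00000059498, chromosome 1, 171051174 to 171064935, GRCm38) encodes a low-affinity receptor for IgG that activates cells through the signalling chain encoded by Fcer1g. It was at 30.9, 32.7 and 31.4 CPM in the saline libraries and at 71.5, 69.6 and 73.1 CPM in the carnosine libraries. The groups were far apart, and each was tight. Its estimated change was the largest of the 10 genes in either direction (2.26-fold higher, log2 fold change 1.18 ± 0.0478, SE, edgeR adjusted p = 3.5e-06). The 95% interval of Mrc1, -1.40 to -0.69 on the log2 scale, includes a fall of that size. Fcgr3 kept its direction and its call under all 16 alternative settings.

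Part of Fcgr3 is shared with Fcgr2b, the gene of the inhibitory IgG receptor, and no source used here says how reads that fit both were counted. Of the distinct 50-base windows in the GENCODE M21 transcripts of Fcgr3, 9.58% also occur in Fcgr2b. Over 691 aligned coding bases the pair is 89.7% identical, with a longest shared run of 129 bases. The 120 coding bases around the end of that run are shown because a read that lies within a stretch of lower-case letters fits both genes; capitals mark the base that differs.
Fcgr3: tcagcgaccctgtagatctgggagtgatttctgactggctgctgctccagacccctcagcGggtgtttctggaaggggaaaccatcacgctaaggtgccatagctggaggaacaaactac
Fcgr2b: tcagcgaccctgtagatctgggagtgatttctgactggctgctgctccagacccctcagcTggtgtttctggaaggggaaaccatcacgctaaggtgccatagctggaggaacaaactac
Fcgr2b itself was at 32.1, 40.2 and 37.7 CPM with saline and 54.1, 70.1 and 71.0 CPM with carnosine. That rise also passed (log2 fold change 0.83 ± 0.126, SE; edgeR adjusted p = 0.0020). With the counts of the pair summed before the fit, the rise was 0.999 on the log2 scale (edgeR adjusted p = 5.2e-05). The share of Fcgr2b in the pair's counts was 53.6 ± 2.27% with saline and 47.5 ± 3.84% with carnosine (SD, n = 3 each). The groups did not overlap, and p was 0.10 in a two-sided exact permutation test, the smallest value that 3 against 3 libraries allow (adjusted p = 0.40 over 4 shares). The difference of -6.10 percentage points was -3.90 without carnosine replicate 1.

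**Figure D3:**
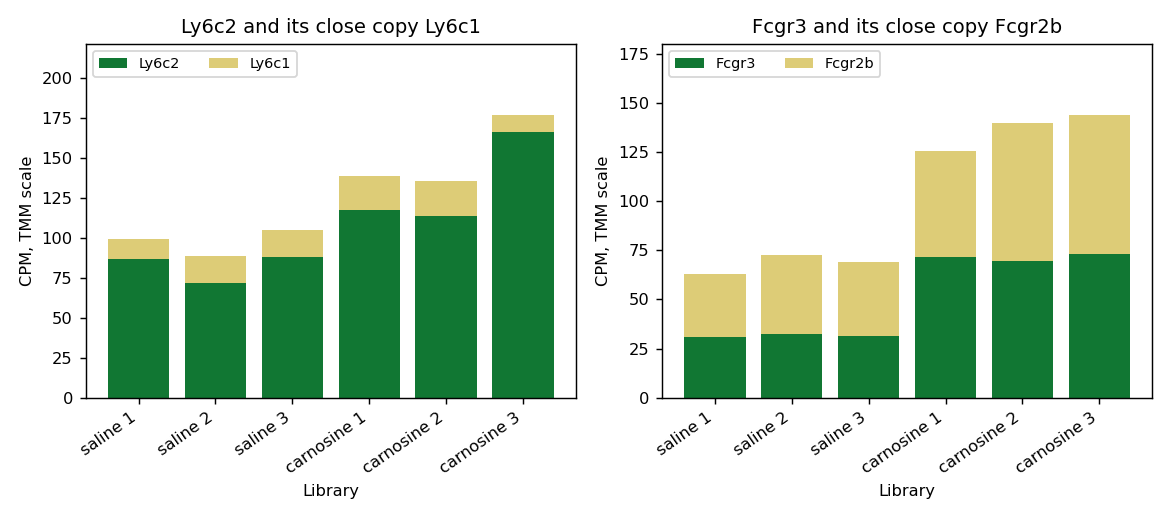
Stacked CPM of Ly6c2 with Ly6c1 and of Fcgr3 with Fcgr2b in each library. The summed level is higher in every carnosine library than in every saline library for both pairs, and carnosine replicate 3 stands out with the most Ly6c2 and the least Ly6c1 of its group.

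The signalling chain of Fcgr3 went the opposite way. Fcer1g, which the activating Fc receptors need at the cell surface, was at 39.8, 35.9 and 35.2 CPM with saline and 27.3, 28.5 and 24.8 CPM with carnosine. It fell (log2 fold change -0.46 ± 0.077, SE; edgeR adjusted p = 0.0031), as did the kinase gene Syk that acts downstream of it (-0.30 ± 0.0293, SE). Across the 12 genes of the Fc receptor axis, all tested, the median log2 fold change was 0.067. Of these 6 rose and 2 fell, or 66.7% called, against 39.4% of all tested genes. Those that rose included Fcgr2b, Ptpn6, Fcgr4, the neonatal Fc receptor gene Fcgrt and the kinase gene Fgr. Fcgrt rose from 5.03 ± 0.631 to 10.1 ± 1.29 CPM (SD, n = 3 each). Fcgr4 was low in both groups (0.786 ± 0.275 and 2.24 ± 0.378 CPM; log2 fold change 1.49 ± 0.278, SE). The high-affinity receptor gene Fcgr1, at 1.56 ± 0.347 and 0.935 ± 0.191 CPM, did not pass (edgeR adjusted p = 0.066).

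Cd14 (ENSMUSG00000051439, chromosome 18, 36725074 to 36726736, GRCm38) encodes the co-receptor that hands bacterial lipopolysaccharide to Toll-like receptor 4. It was at 9.03, 9.28 and 9.75 CPM in the saline libraries and at 6.54, 6.34 and 8.19 CPM in the carnosine libraries. Carnosine replicate 3 lay nearest to the saline group but did not reach it. The fall was 1.33-fold (log2 fold change -0.41 ± 0.12, SE; edgeR adjusted p = 0.030). It rested on few counts, 88 to 149 per library, and it was lost when any 1 of the saline libraries or carnosine replicate 1 or 2 was left out (edgeR adjusted p = 0.058 to 0.089). Without carnosine replicate 3 it held (log2 fold change -0.53, adjusted p = 0.010), and the DESeq2 Wald test gave adjusted p = 0.11.

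The partners of Cd14 did not share 1 direction. Tlr4 (2.16 ± 0.401 and 3.28 ± 2.18 CPM) and Ly96, the gene of the lipopolysaccharide-binding subunit MD-2 (1.83 ± 0.0468 and 2.09 ± 0.32 CPM), were low and not called (SD, n = 3 each). Tlr2, a receptor for bacterial lipoproteins that also uses CD14, fell from 31.9 ± 1.77 to 11.5 ± 0.607 CPM (log2 fold change -1.47 ± 0.0739, SE; edgeR adjusted p = 1.0e-05). Of the 13 genes of this axis, all tested, 2 fell (Tlr2 and the ubiquitin ligase gene Traf6) and 6 rose. The axis had 61.5% called, against 39.4% of all tested genes, and a median log2 fold change of 0.19. Those that rose included Lbp, which encodes a lipopolysaccharide-binding protein (47.5 ± 0.59 to 73.1 ± 5.49 CPM), and the adaptor gene Ticam2 (11.8 ± 0.556 to 17.0 ± 0.989 CPM).

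Mrc1 (ENSMUSG00000026712, chromosome 2, 14229392 to 14332057, GRCm38) encodes the mannose receptor of tissue macrophages. It had 73, 66 and 60 counts in the saline libraries, or 4.42, 4.28 and 4.87 CPM. The carnosine libraries had 29, 35 and 25 counts, or 2.09, 2.52 and 1.93 CPM. Levels were low, yet no carnosine library reached the lowest saline library. The fall was 2.06-fold (log2 fold change -1.05 ± 0.15, SE; edgeR adjusted p = 0.0015). Mrc1 kept its call under the 12 alternative settings that tested it, but its level was below the minimum of 5 CPM and below the minimum of 1 FPKM that 3 of the other settings ask for.

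Of 26 other genes listed for tissue macrophages, 12 had too few counts to be tested, among them the complement genes C1qa, C1qb and C1qc, each under 1 CPM in every library, and Siglec1, Mertk and Timd4. Of the 14 tested, 6 rose, 2 fell and 6 were not called, with a median log2 fold change of 0.33. The share called was 57.1%, against 39.4% of all tested genes. The scavenger receptor gene Cd36 rose from 6.33 ± 0.32 to 18.5 ± 1.76 CPM, and the galectin gene Lgals3 from 7.99 ± 0.51 to 17.2 ± 0.78 CPM. The falls were the lipoprotein gene Apoe, from 216 ± 37.8 to 69.6 ± 8.01 CPM, and the scavenger receptor gene Stab1, from 11.0 ± 0.94 to 2.77 ± 0.277 CPM (SD, n = 3 each). Because Apoe made up most of the list's counts in the saline libraries, the list summed to 269 to 340 CPM there and to 173 to 192 CPM across the carnosine libraries. Adgre1, which encodes the macrophage antigen F4/80, was at 1.11 ± 0.343 and 1.84 ± 0.103 CPM, which missed the threshold (edgeR adjusted p = 0.054). None of the 26 genes was at 0 in every library.

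Ccr2 (ENSMUSG00000049103, chromosome 9, 124101950 to 124113557, GRCm38) encodes the receptor for the chemokine CCL2, by which inflammatory monocytes leave the marrow. It was at 80.1, 64.2 and 46.0 CPM in the saline libraries and at 67.4, 81.2 and 51.5 CPM in the carnosine libraries. The highest library was 1.74 times the lowest with saline and 1.58 times with carnosine, the widest spread within the saline group among the 10 genes. In each group replicate 3 was lowest. No difference was detectable against that spread (log2 fold change 0.070 ± 0.224, SE, with a 95% interval of -0.46 to 0.60; edgeR adjusted p = 0.84), and the sign turned without saline replicate 3 (-0.11) or carnosine replicate 2 (-0.096).

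Cx3cr1 (ENSMUSG00000052336, chromosome 9, 119901616 to 120069879, GRCm38) encodes the fractalkine receptor of patrolling monocytes. It was at 11.3, 10.9 and 11.5 CPM with saline and 12.7, 11.1 and 9.73 CPM with carnosine. The carnosine libraries lay on either side of the saline libraries, and the means were nearly equal (log2 fold change -0.0039 ± 0.109, SE, with a 95% interval of -0.26 to 0.25; edgeR adjusted p = 0.98). Its sign turned under 7 of 15 alternative settings. The share of Cx3cr1 in the summed counts of Cx3cr1 and Ccr2 was 15.6 ± 3.89% with saline and 14.6 ± 2.23% with carnosine (SD, n = 3 each; exact two-sided permutation p = 0.80, adjusted p = 0.80 over 4 shares). That difference of -1.02 percentage points moved by over 1.5 times with any library left out, from -2.63 without saline replicate 1 to 1.14 without saline replicate 3.

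A ligand gene of each chemokine receptor fell. The other CCR2 ligand genes listed, Ccl7, Ccl8 and Ccl12, had too few counts to be tested. Ccl2 was at 2.18, 2.01 and 2.11 CPM with saline and at 0.575, 0.577 and 0.927 CPM with carnosine, which gave a log2 fold change of -1.60 ± 0.233 (SE; edgeR adjusted p = 0.0016). Cx3cl1 fell from 2.49 ± 0.817 to 0.46 ± 0.419 CPM (SD, n = 3 each). Of the 16 ligand and homing genes 12 were tested, and 6 fell, 3 rose and 3 were not called, with a median log2 fold change of -0.023. Calls thus made up 75.0% of those tested, against 39.4% of all tested genes. The chains of the integrin Mac-1 rose, Itgam from 21.9 ± 2.73 to 34.1 ± 5.73 CPM and Itgb2 from 82.0 ± 3.04 to 92.7 ± 2.19 CPM (SD, n = 3 each). Itgal, the integrin chain of LFA-1, fell by 0.24 on the log2 scale, and the other falls were Pecam1, Cxcr4 and Itga4. Ccl8 had no counts in any library, which allows up to 3 counts summed over each group by counting error.

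Ly6c2 (ENSMUSG00000022584, chromosome 15, 75108158 to 75111970, GRCm38) encodes a glycolipid-anchored surface protein by which mouse inflammatory monocytes are recognised. It was at 86.6, 71.9 and 88.0 CPM in the saline libraries and at 117, 114 and 166 CPM in the carnosine libraries. Carnosine replicate 3 stood above all other libraries, and the groups did not overlap. The rise was 1.61-fold (log2 fold change 0.69 ± 0.153, SE; edgeR adjusted p = 0.011), and it was 0.49 on the log2 scale without carnosine replicate 3 (edgeR adjusted p = 0.0088).

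Ly6c2 has a close copy, Ly6c1, which also occurs on endothelial cells and lymphocytes. Of the 50-base windows of Ly6c2, 13.9% occur in Ly6c1, and over 372 aligned coding bases the copies are 94.1% identical, with a longest shared run of 188 bases. The 120 coding bases around the end of that run are shown for the same reason as above, with the differing base in capitals.
Ly6c2: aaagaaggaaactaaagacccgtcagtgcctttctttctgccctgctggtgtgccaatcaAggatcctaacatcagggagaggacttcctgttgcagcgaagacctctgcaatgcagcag
Ly6c1: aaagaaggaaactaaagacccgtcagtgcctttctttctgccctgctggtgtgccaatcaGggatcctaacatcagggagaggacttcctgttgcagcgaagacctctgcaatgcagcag
Ly6c1 was at 13.03, 16.8 and 17.1 CPM with saline and 21.6, 21.9 and 11.1 CPM with carnosine, and was not called (edgeR adjusted p = 0.52). In carnosine replicate 3, where Ly6c2 was highest, Ly6c1 was lowest. Of the 50-base windows of Ly6c1, 21.5% occur in Ly6c2 and 11.1% in another gene, Ly6a. The sum and share below leave Ly6a out. The copies together were at 99.6, 88.7 and 105 CPM with saline and at 139, 136 and 177 CPM with carnosine, so the groups did not overlap in the sum either (log2 fold change 0.62 in the fit on summed counts, edgeR adjusted p = 0.0041). The share of Ly6c1 was 16.1 ± 2.94% with saline and 12.7 ± 5.53% with carnosine (SD, n = 3 each; exact two-sided permutation p = 0.40, adjusted p = 0.53 over 4 shares). That difference of -3.44 percentage points was -0.26 without carnosine replicate 3, -2.01 without saline replicate 2 and -5.18 without carnosine replicate 2.

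Lyz2 (ENSMUSG00000069516, chromosome 10, 117277331 to 117282321, GRCm38) encodes lysozyme M, the bacteriolytic enzyme of monocytes, macrophages and granulocytes. It was at 95.2, 96.5 and 97.7 CPM in the saline libraries and at 81.8, 85.8 and 76.9 CPM in the carnosine libraries. The saline libraries agreed closely, and all carnosine libraries were lower. The fall was 1.18-fold, small but beyond the spread (log2 fold change -0.24 ± 0.0469, SE; edgeR adjusted p = 0.0058).

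Its copy Lyz1, the lysozyme gene of the gut, shares 422 of 444 coding bases with it, and 15.4% of the 50-base windows of Lyz2 occur in it. The last 120 coding bases before the stop codon are shown, with the 2 differing bases in capitals.
Lyz2: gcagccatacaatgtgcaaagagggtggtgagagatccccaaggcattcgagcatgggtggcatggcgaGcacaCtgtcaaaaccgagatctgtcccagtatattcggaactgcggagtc
Lyz1: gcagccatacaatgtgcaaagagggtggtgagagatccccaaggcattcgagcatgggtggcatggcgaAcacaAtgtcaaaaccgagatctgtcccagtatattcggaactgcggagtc
Few reads were counted to Lyz1: it had 0, 0 and 7 counts in the saline libraries and at most 0.793 CPM in any library. Lyz1 took 0.193 ± 0.334% of the pair's counts with saline and 0.684 ± 0.24% with carnosine (SD, n = 3 each; exact two-sided permutation p = 0.20, adjusted p = 0.40 over 4 shares).

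Cd68 (ENSMUSG00000018774, chromosome 11, 69664213 to 69666153, GRCm38) encodes a glycoprotein of the lysosome and endosome membrane that is widely used to stain macrophages. It was at 21.5, 24.0 and 25.3 CPM in the saline libraries and at 26.7, 27.9 and 28.2 CPM in the carnosine libraries. The groups lay next to each other without overlap. The rise was 1.17-fold and sat at the threshold (log2 fold change 0.23 ± 0.0755, SE; edgeR adjusted p = 0.049). It was lost with each library other than saline replicate 3 left out in turn (log2 fold changes 0.16 to 0.25, edgeR adjusted p = 0.072 to 0.12), without a filter on low counts (0.080), with at least 5 CPM in 3 libraries (0.0501), with the replicate number as a block (0.055) and with the DESeq2 Wald test (0.15).

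Ctss (ENSMUSG00000038642, chromosome 3, 95526786 to 95556403, GRCm38) encodes cathepsin S, the protease that trims the invariant chain of MHC class II molecules in antigen-presenting cells. It was at 57.5, 55.6 and 55.6 CPM in the saline libraries and at 58.5, 58.2 and 56.8 CPM in the carnosine libraries. The groups overlapped, and no difference was detected (log2 fold change 0.041 ± 0.042, SE, with a 95% interval of -0.058 to 0.14; edgeR adjusted p = 0.48). Ctss passed on the deposited FPKM values, where the whole table shifts upward (log2 fold change 0.095 against a median of 0.051 for all genes; limma-trend adjusted p = 0.037).

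Other lysosomal genes moved in both directions, with more rises than falls. Of 25 listed, 24 were tested, and 9 rose, 3 fell and 12 were not called, with a median log2 fold change of 0.10. These counts out of 24 stand beside 39.4% called among all tested genes, 19.6% higher and 19.8% lower. The cysteine protease inhibitor gene Cst3 rose from 225 ± 1.69 to 367 ± 2.9 CPM, and the saposin precursor gene Psap from 697 ± 12.6 to 1041 ± 8.91 CPM (SD, n = 3 each). Cd63, a membrane protein gene of late endosomes, rose by 0.50 ± 0.0422 and the glucuronidase gene Gusb by 0.33 ± 0.0299 on the log2 scale (SE). The 3 falls were Lamp1, Laptm5 and the protease gene Lgmn. Among the other cathepsin genes of the list, Ctsz rose from 182 ± 6.66 to 216 ± 3.42 CPM (SD; edgeR log2 fold change 0.25, adjusted p = 0.0010). Ctsa, Ctsb, Ctsc, Ctsd, Ctsh and Ctsl were not called, with Ctsd at 303 ± 25.1 and 303 ± 42.1 CPM, and Ctsk was not tested.

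Transcription factor genes of the lineage split into opposite directions. Of 16 listed, all tested, 10 fell and 5 rose, with a median log2 fold change of -0.71. Together 93.8% were called, against 39.4% of all tested genes. Among the rises, Spi1, which encodes PU.1, was at 90.2, 90.9 and 82.9 CPM with saline and 98.6, 101 and 102 CPM with carnosine. Irf8 rose from 182 ± 6.76 to 248 ± 6.82 CPM (n = 3 each, SD), a log2 fold change of 0.45 ± 0.0363 (SE), and Cebpa, Irf5 and Gfi1 rose with it. Gfi1, which favours granulocytes, was at 7.15, 15.4 and 7.55 CPM in the saline libraries and 66.4 to 72.5 CPM in the carnosine libraries. Among the falls, Klf4 went from 57.7 ± 2.42 to 19.2 ± 2.04 CPM and Nr4a1, needed by patrolling monocytes, from 881 ± 1.53 to 160 ± 3.8 CPM. Ets2 fell by 0.96 and Bach1 by 0.81 on the log2 scale. The macrophage factor gene Maf was low and fell too (5.28 ± 1.1 to 2.72 ± 0.392 CPM). Klf4, Nr4a1, Egr2 and Cebpb are also genes that respond quickly to stimulation of cells.

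Markers of monocyte subsets did not move as a block. Of 15 classical monocyte genes 14 were tested, and 4 rose (among them Ms4a3, Mpeg1 and Itgam), 4 fell (Ms4a6c, Fn1, S100a4 and Ly86) and 6 were not called, with a median log2 fold change of 0.20. Ms4a3, a gene of granulocyte and monocyte progenitors, rose from 116 ± 0.9 to 286 ± 6.18 CPM, and Ms4a6c fell from 72.6 ± 1.16 to 50.4 ± 2.05 CPM (SD, n = 3 each). Of 12 patrolling monocyte genes 9 were tested, and 3 rose (Treml4, Itgax and Ear2), 4 fell (Nr4a1, Cebpb, Fabp4 and Itgal) and 2 were not called, with a median of 0.14. The 9 lists together hold 141 different genes, of which 119 were tested, 40 rose and 33 fell. Their share of calls, 61.3%, is read beside the 39.4% of all tested genes as a description only. For the classical and patrolling lists it was 57.1% and 77.8%.

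**Figure D4:**
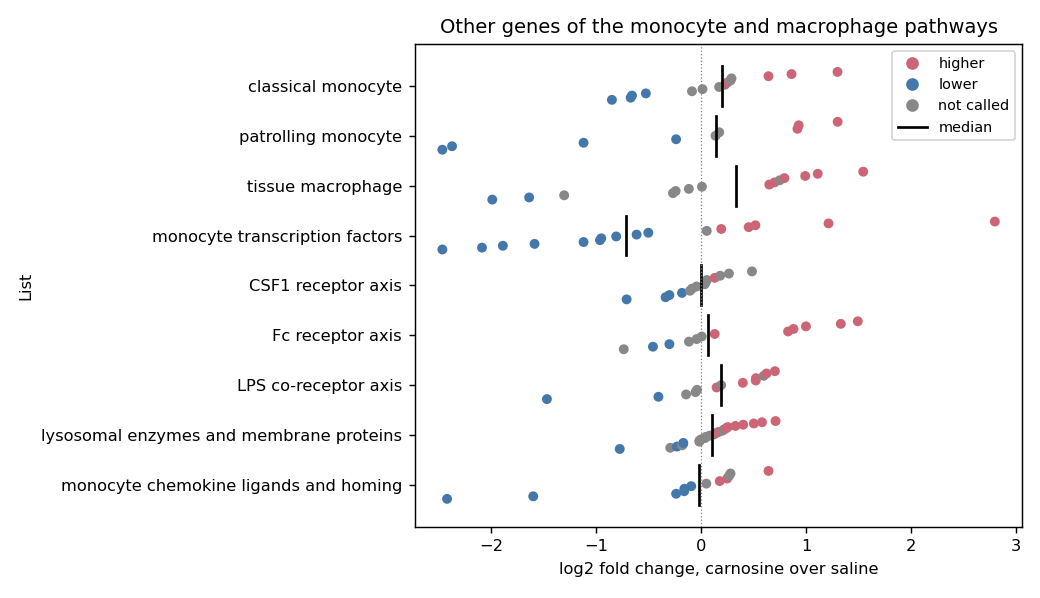
Log2 fold change of every tested gene in the 9 lists of related genes, coloured by call, with the list's median as a black line. Each list holds genes on both sides of 0, and the median of the transcription factor list lies at -0.71.

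Markers of other cells moved beside these genes. In the lists of this paragraph 60.0% (stem cell, endothelial and stromal) to 100% (neutrophil progenitor, megakaryocyte) of tested genes were called. Among all tested genes 39.4% were called. All 7 genes of neutrophil progenitors rose, among them Elane, Mpo and Ctsg, and their summed level was 3744 to 3778 CPM in the saline libraries and 7804 to 8051 CPM in the carnosine libraries. Of the 9 tested dendritic cell genes 7 rose and 1 fell, with summed levels of 305 to 320 and 666 to 697 CPM. Among these dendritic cell genes H2-Ab1, Xcr1 and Clec9a rose by 1.36, 1.74 and 1.69 on the log2 scale. Of 8 tested genes of mature neutrophils 2 rose and 3 fell, with summed levels of 45.5 to 48.7 and 29.1 to 34.4 CPM. Of the 10 tested stem cell genes 5 fell, including Slamf1 and Mecom, and 1 rose (Kit), with summed levels of 551 to 570 and 535 to 552 CPM. All 6 tested megakaryocyte genes fell, among them Vwf from 107 ± 3.7 to 30.5 ± 0.759 CPM and Pf4 from 24.2 ± 0.847 to 5.59 ± 0.77 CPM, and the list summed to 381 to 406 and 152 to 158 CPM. Of 5 tested endothelial and stromal genes 3 fell, with summed levels of 130 to 140 and 110 to 115 CPM. The endothelial genes Cdh5, from 7.16 ± 2.23 to 1.06 ± 0.3 CPM, and Kdr, from 7.79 ± 0.858 to 1.47 ± 0.421 CPM, fell beside Mrc1 and Stab1 (SD, n = 3 each). Sinusoidal endothelium is also known to transcribe Mrc1 and Stab1, and its part in their falls was not tested. No gene of these lists was at 0 in every library. Fcgr3, Ly6c2, Csf1r and Lyz2 are also transcribed in such progenitors and myeloid cells, and the part that a shift among cells played in their changes was not tested.

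Levels can be compared between genes only per length of transcript, and the length matters here. The deposited FPKM values use a length that, for 89.4% of 10930 genes with at least 100 counts in saline replicate 1, lies within 1% of the sum of all distinct annotated exons of GENCODE M21, so that overlapping exons of alternative transcripts count more than once. For Ccr2 that length is 14410 bases although the gene spans 11608 bases. Of the 10 genes, 8 had that sum as their deposited length. Csf1r had 5863 bases against a sum of 7726, or 5774 with each base counted once. Cd14 had 1572 bases against 2509, or 1732 with each base counted once. Both also stand at a position other than in GENCODE M21. Levels per kilobase of merged exons, with each base counted once, were therefore computed from the CPM. On that scale Lyz2 was highest in both groups, at 73.3 ± 0.95 with saline and 61.9 ± 3.37 with carnosine (SD, n = 3 each). In the saline libraries Ctss (41.4 ± 0.789) and Ly6c2 (30.0 ± 3.26) followed, then Cd68 (18.8 ± 1.57) and Fcgr3 (18.2 ± 0.535), which overlapped each other, and Csf1r (14.6 ± 0.755). Ccr2 (9.38 ± 2.52), Cd14 (5.4 ± 0.21), Cx3cr1 (2.49 ± 0.064) and Mrc1 (0.711 ± 0.0483) were lowest. In the carnosine libraries Ly6c2 (48.3 ± 10.6) stood next to Lyz2 and overlapped both Lyz2 and Ctss (42.6 ± 0.645). Fcgr3 (41.1 ± 1.01) stood above Cd68 (21.9 ± 0.639), Ctss overlapped Fcgr3 as well, and Csf1r (8.29 ± 0.285) lay within the spread of Ccr2 (9.86 ± 2.2). On the deposited FPKM scale Csf1r (14.1 ± 0.701) stood above Cd68 (11.2 ± 0.931) and Fcgr3 (8.08 ± 0.25) in the saline libraries, the reverse of the order on merged exons. The deposited length of Csf1r is close to its merged length. Those of Cd68 (2067 against 1257 bases) and Fcgr3 (3829 against 1736 bases) are well above theirs.

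**Figure D5:**
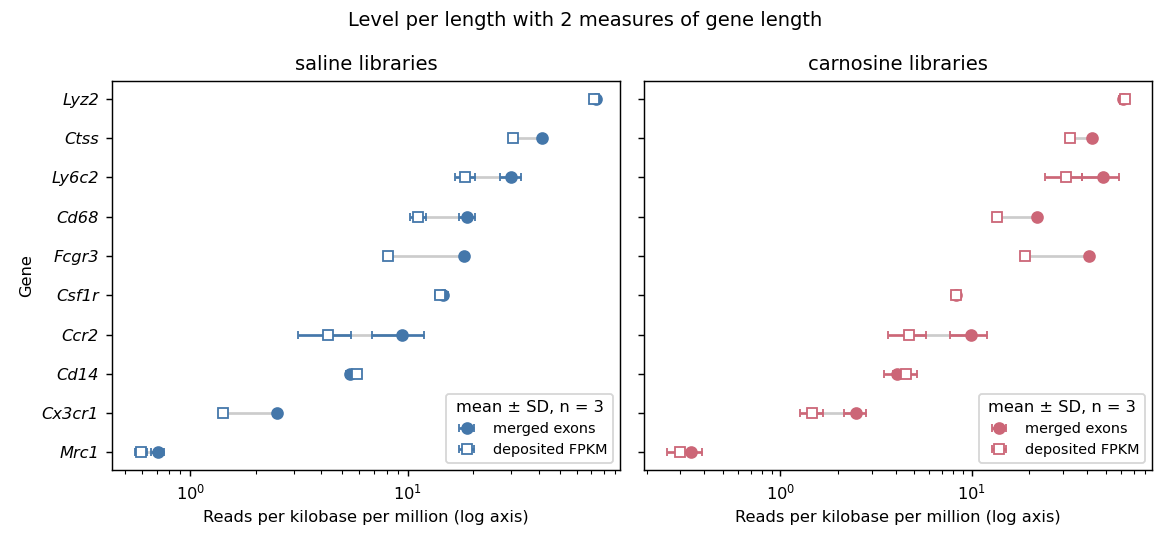
Level in reads per kilobase, scaled to library size as CPM or FPKM (log axis) in the saline and carnosine libraries, on merged exons (filled circles) and as deposited FPKM (open squares), as mean ± SD of 3 libraries. Lyz2 is highest and Mrc1 lowest on both, while Fcgr3, Ccr2 and Cx3cr1 are much lower as deposited FPKM.

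Promoters of the 3 genes that rose are shown to give their sequence at the start site, with motifs of factor families known in myeloid cells. The factor genes themselves moved both ways: Spi1 and Cebpa rose, while Cebpb, whose product reads the same C/EBP motif as that of Cebpa, fell from 58.7 ± 1.98 to 27.0 ± 2.38 CPM (SD, n = 3 each). Each covers 250 bases before and 50 after the outermost start site that the RefSeq table (GRCm38.p6) lists for the gene, on its strand. For Fcgr3 this window lies inside the gene span given above, not at its end. Of the 10 genes, 8 had promoters that were read here. Capitals mark matches, on either strand, to a PU.1 motif (GAGGAAGT), a C/EBP motif (TTGCNNAA), an interferon regulatory factor motif (GAAANNGAA) and an AP-1 motif (TGANTCA). These occur in 3.2%, 10.8%, 8.55% and 7.81% of 32817 promoters of the same length. A match is a description of the letters, not a bound site.
Ly6c2 (chr15:75111922-75112221, minus strand): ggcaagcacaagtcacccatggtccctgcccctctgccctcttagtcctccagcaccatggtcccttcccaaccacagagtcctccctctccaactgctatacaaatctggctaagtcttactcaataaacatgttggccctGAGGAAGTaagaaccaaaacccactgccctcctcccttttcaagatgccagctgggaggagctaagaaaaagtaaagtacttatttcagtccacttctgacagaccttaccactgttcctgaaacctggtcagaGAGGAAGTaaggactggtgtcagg
Fcgr3 (chr1:171059354-171059653, minus strand): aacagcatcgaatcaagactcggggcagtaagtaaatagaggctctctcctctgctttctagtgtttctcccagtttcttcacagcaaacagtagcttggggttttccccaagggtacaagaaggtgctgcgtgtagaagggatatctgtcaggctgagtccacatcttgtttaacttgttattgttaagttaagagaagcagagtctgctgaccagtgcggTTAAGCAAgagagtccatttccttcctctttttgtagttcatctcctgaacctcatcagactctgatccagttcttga
Cd68 (chr11:69666121-69666420, minus strand): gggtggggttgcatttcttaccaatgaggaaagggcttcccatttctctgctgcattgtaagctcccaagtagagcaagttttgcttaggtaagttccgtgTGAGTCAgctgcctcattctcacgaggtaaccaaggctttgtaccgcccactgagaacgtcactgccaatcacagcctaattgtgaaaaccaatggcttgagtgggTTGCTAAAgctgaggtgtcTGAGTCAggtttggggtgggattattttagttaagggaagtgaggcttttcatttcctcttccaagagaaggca
The Ly6c2 promoter holds 2 PU.1 matches, the Fcgr3 promoter 1 C/EBP match, and the Cd68 promoter 1 C/EBP and 2 AP-1 matches. Of the others that were read, Ctss, which was not called, has 1 PU.1 and 1 interferon regulatory factor match, and Ccr2 has 1 of the latter. Lyz2, Mrc1 and Cx3cr1 have none in this window.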

How the data were processed

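Poly-A RNA of sorted bone marrow cells was sequenced as stranded paired-end libraries, per the labels' protocols; titles gave the groups and replicate numbers. The submitters' processing notes name GRCm38, StringTie, HISAT2, edgeR and CASAVA 1.8, with no roles. No source used here gives the annotation, the strand setting or how reads fitting several genes were handled. The deposited table gives whole-number counts, not normalized, and FPKM values per gene and library, per the file headers; every row names a gene and every column of values was used.

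For the counts of all 53465 genes, the model was fitted by edgeR 4.0.16 under R 4.3.3 (filterByExpr, TMM, quasi-likelihood F-test, no covariate, Benjamini-Hochberg over 15533 genes, threshold 0.05; biological coefficient of variation 0.0999). CPM are scaled by TMM, and the SE is the log2 fold change divided by the square root of F. Replicate libraries differed by 1.65 to 1.88 times sampling noise, so none was counted as a duplicate. The procedure was tested on simulated data. Alternatives were other scalings and filters, DESeq2 1.42.0, limma-voom and limma-trend (limma 3.58.1) on log2(FPKM + 1) or log2(FPKM + 0.1), a replicate block, and each library left out. Summing close copies and measuring length on merged exons were added after seeing the data.

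The 10 genes, the lists and the tests were chosen with earlier results of these data known. From each list up to 4 called genes with the smallest p and at least 5 CPM were named, beside partners fixed by name; all other genes named were chosen after their values were seen. The 18 lists hold 215 different genes. Those of B and plasma cells (2 of 9 tested rose, 1 fell), T and NK cells (5 of 7 rose, 2 fell), and erythroid cells (6 of 8 rose, 1 fell) are not discussed further. Their shares called were 33.3%, 100% and 87.5%, against 39.4% of all tested genes. The B and plasma cell list summed to 485 to 500 CPM in the saline libraries and to 797, 789 and 498 CPM in carnosine replicates 1, 2 and 3. Some genes of the lists are counted but not reported here by name.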

Additional observations from a re-analysis of the deposited data

How the results depend on the processing

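Csf1r, Fcgr3, Ly6c2, Lyz2 and Mrc1 kept their direction and their call under every alternative that tested them. The number of the 10 genes called stayed at 2 to 3 higher and 3 to 4 lower when single libraries were left out. Cd68 lost its call at log2 fold changes of 0.22 without a filter and with at least 5 CPM in 3 libraries, and of 0.23 with the DESeq2 Wald test and with the replicate block; without single libraries it ranged from 0.16 to 0.28. Cd14 lost its call with the DESeq2 Wald test (-0.41) and ranged from -0.53 to -0.35 without single libraries. Ctss gained a call with limma-trend (0.095 on log2(FPKM + 1) and 0.098 on log2(FPKM + 0.1)), settings in which the median of all genes was 0.051 and 0.059. Cx3cr1 turned sign with upper quartile scaling (5.0e-04) and with limma-trend (0.027 and 0.041), and ranged from -0.11 to 0.087 without single libraries. Ccr2 ranged from -0.11 to 0.27 without single libraries. The cause of these changes was not tested. Leaving out a library leaves 2 in its group.

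Same-numbered libraries share only a number: the correlations of their deviations from the group means were 0.0079 to 0.027, although every library correlated best with its own number. With the replicate block, 2552 genes were called higher and 2679 lower, against 3038 and 3077 without it, and of the 10 genes only Cd68 lost its call. Mrc1 and Cd14 had the fewest counts of the 10 genes, 25 to 149 per library.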
